A study of Caenorhabditis elegans with 3 samples.

Results

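The genes described here encode the small secreted peptides of Caenorhabditis elegans. They were all protein-coding genes with a symbol beginning flp-, nlp- or ins-, and daf-28. The rule found 141 of 19973 protein-coding genes, of which 31 were flp genes, 71 were nlp genes and 39 were ins genes with daf-28. The rule used symbols and no measured value, though these families were picked with earlier results of these data known.

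The data are chromatin immunoprecipitation with sequencing (ChIP-seq) of EGL-27, a homologue of the MTA subunits of the NuRD chromatin complex. There was 1 group with 3 biological replicates of whole L2 larvae, of mixed sex, of strain OP177 with the genotype unc-119(ed3) III; wgIs177. These animals stably expressed EGL-27 fused to GFP and FLAG at its C-terminus, so the protein mapped is the tagged one, and every replicate carried the same allele and transgene. The animals were not separated into tissues, so strong binding in a few cells cannot be told apart from weak binding in many. On the ce11 build the authors' thresholded set, chosen by irreproducible discovery rate and called the IDR set here, held 1997 regions, and their pooled list, which adds weaker regions and background, held 30000. Each region has a summit and a signal value, the authors' own, used here to rank regions within 1 list. IDR signals ran from 34.8 to 378 and pooled ones down to 6.68. The lists of replicates 1, 2 and 3 held 13245, 30000 and 30000 regions, and their read depths are unknown from the files.

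Peptide precursors of these families enter the secretory pathway, are cut by proprotein convertases such as EGL-3, trimmed by the carboxypeptidase EGL-21 and released from dense core vesicles with the help of UNC-31. The flp genes encode FMRFamide-like peptides and the nlp genes other neuropeptide-like proteins, and most of their known receptors are G protein-coupled. The ins genes and daf-28 encode insulin-like peptides, ligands of the insulin receptor DAF-2, which controls dauer formation and lifespan through the FOXO factor DAF-16. Some nlp genes, nlp-29 and nlp-31 among them, are expressed in the epidermis and induced by fungal infection.

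Windows of 201 bp around summits are shown for 6 places that carry the results. They include the only IDR summit within 1000 bp upstream of a peptide gene (ins-39) and the only one inside a peptide gene (nlp-11). The others are among the strongest pooled summits outside the IDR set at nlp genes (nlp-31, nlp-29, nlp-24 and nlp-33). This choice is not complete, since another nlp gene, described further below, had a stronger region than nlp-29 and is not shown. Each window is read 5′ to 3′ along the strand of the gene from the RefSeq genome WBcel235, which is ce11. Capitals mark GATA sites (NGATAN with A or T before and A or G after, so AGATAA is one and TGATAG another) and the repeat GAGAGA, on either strand, so that their reverse complements are capitals too. No window held the E-box CACGTG.
ins-39, chrX:1344954-1345154, minus strand: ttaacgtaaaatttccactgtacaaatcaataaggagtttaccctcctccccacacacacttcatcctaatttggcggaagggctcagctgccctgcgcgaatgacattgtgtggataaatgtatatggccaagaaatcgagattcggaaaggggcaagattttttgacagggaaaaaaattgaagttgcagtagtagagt
nlp-11, chrII:9690316-9690516, minus strand: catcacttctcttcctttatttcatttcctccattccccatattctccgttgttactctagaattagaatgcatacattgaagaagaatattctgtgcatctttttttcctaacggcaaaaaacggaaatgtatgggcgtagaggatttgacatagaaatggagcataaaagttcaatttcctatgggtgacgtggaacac
nlp-31, chrV:3979951-3980151, plus strand: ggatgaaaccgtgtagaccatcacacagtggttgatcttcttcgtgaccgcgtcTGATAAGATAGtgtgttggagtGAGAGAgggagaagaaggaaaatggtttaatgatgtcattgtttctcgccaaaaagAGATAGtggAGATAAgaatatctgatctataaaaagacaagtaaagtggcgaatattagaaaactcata
nlp-29, chrV:3984196-3984396, plus strand: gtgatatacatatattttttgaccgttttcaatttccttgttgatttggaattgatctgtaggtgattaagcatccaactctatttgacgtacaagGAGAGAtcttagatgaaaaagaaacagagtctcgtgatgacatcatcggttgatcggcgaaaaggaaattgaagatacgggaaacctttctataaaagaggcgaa
nlp-24, chrV:11616047-11616247, plus strand: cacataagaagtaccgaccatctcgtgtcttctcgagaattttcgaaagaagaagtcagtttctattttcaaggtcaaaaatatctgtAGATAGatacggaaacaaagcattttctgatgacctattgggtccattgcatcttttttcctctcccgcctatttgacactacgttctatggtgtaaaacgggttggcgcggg
nlp-33, chrV:11147284-11147484, plus strand: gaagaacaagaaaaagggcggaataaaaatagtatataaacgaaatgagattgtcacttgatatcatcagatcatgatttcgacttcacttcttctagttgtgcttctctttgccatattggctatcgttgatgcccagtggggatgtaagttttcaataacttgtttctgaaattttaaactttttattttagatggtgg

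Peptide genes had few EGL-27 peaks. An IDR summit lay within 1000 bp upstream of the 5′ end of 1 of 141 (0.709%), where 5.77% of all protein-coding genes and 1151 of 19832 other genes (5.80%) had one. Within 5000 bp upstream the count was 4 (2.84%), against 13.1% of all protein-coding genes and 13.2% of other genes. In the gene body it was 1 (0.709%), against 2.38% of all genes and 2.40% of others. In these zones together 5 peptide genes had an IDR summit (3.55%), against 14.9% of all genes. No flp gene was among them, while 4 of 71 nlp genes and 1 of 39 insulin-like genes were. These shares describe the peak set, and no test was made over the genes.

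**Figure D1:**
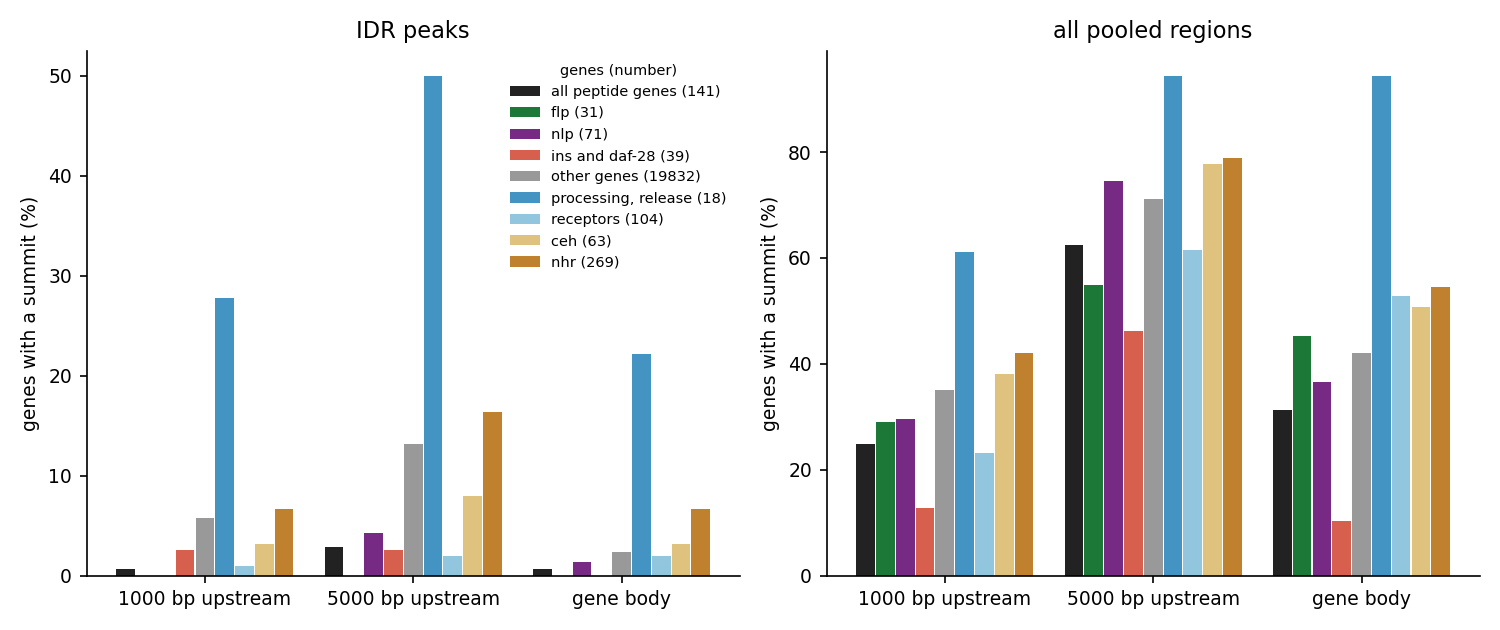
Percentage of genes with at least 1 summit in each zone, for IDR peaks (left) and all pooled regions (right), the number of genes in each group being given in the legend. The bars of the peptide genes stand below those of other genes in every zone on the left (0.709% and 5.80% within 1000 bp upstream), and the bars for peptide processing and release stand highest.

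The strongest peak at a peptide gene was that of ins-39, which encodes an insulin-like peptide (chrX:1343758-1344421, minus strand). The region (chrX:1344935-1345188, 254 bp) had a signal of 160.0, rank 56 of 30000 in the pooled list, and its summit stood at -633 bp from the 5′ end. In replicate 1 the overlapping region had rank 37 (signal 20.7), in replicate 2 rank 113 (signal 55.0) and in replicate 3 rank 42 (signal 92.2). It was thus among the 1997 strongest regions of every replicate, the only region of a peptide gene for which this held in any of the 3 zones. The site is intergenic, the nearest 5′ end of a protein-coding gene is that of ins-39, and the next such gene upstream, F56C3.3, is 13349 bp away. The window held 0 GATA and 0 GAGAGA matches and had a G+C content of 42.3%.

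The other 4 IDR summits were weak. Among protein-coding genes, 2 of them stood closer to the 5′ end of another gene, and the one upstream of nlp-76 lay inside a transfer RNA gene. In nlp-11 the summit lay in an intron, 1523 bp downstream of the 5′ end (chrII:9690241-9690590, signal 43.8, pooled rank 1324). It was rank 1560 in replicate 2 and 3006 in replicate 3 and was not listed in replicate 1. Upstream of nlp-76 (summit at -1332 bp, signal 44.2) the site was in a transfer RNA gene and in an intron of the nuclear receptor gene nhr-17, with ranks of 2099, 2952 and 2278 in replicates 1, 2 and 3. The summit at -2141 bp of nlp-56 (signal 35.5) was at -153 bp from its divergent neighbour melo-1. The summit at -3879 bp of nlp-80 (signal 38.1) was at -134 bp from the neighbour T04C12.8. Both were listed in replicates 2 and 3 only. With the 5000 bp window ended at the next gene, 2 peptide genes (1.42%) had a summit, against 7.89% of other genes.

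In each replicate a smaller share of peptide genes than of other genes had a summit among the 1997 strongest regions. Within 1000 bp upstream the counts were 4, 2 and 2 peptide genes in replicates 1, 2 and 3, or 1.89% ± 0.820 (SD, n = 3), against 4.87% ± 1.26 (SD, n = 3) of other genes. The difference was -0.602 percentage points in replicate 1, -4.42 in replicate 2 and -3.92 in replicate 3, so replicate 1 stood apart. Counting IDR peaks that overlap the 1997 strongest regions of both other replicates, the difference in the IDR set, -5.09 points with all peaks, was -3.01 without replicate 1 (1246 peaks kept), -0.935 without replicate 2 (544 kept) and -0.990 without replicate 3 (565 kept). Within 5000 bp the counts were 11, 5 and 4 (7.8%, 3.55% and 2.84%), against 10.3%, 13.0% and 12.2% of other genes. The differences there were -2.52, -9.43 and -9.4 points, with a mean of -7.12 ± 3.98 (SD, n = 3), so replicate 1 stood apart again. In the body the counts were 2, 1 and 0 (1.42%, 0.709% and 0%), against 4.55%, 2.42% and 2.51% of other genes, with a mean difference of -2.45 ± 0.714 points (SD, n = 3). Peptide genes were lower in 3 of 3 replicates in each zone. The exact sign-flip permutation test over replicates, two-sided, gave p = 0.25 in each of the 3 zones, which is the smallest p that 3 replicates allow and above any usual threshold. The 11 genes of replicate 1 within 5000 bp were 9 nlp and 2 insulin-like genes, among them nlp-28, nlp-29, nlp-30, nlp-31 and nlp-34, which are neighbours.

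**Figure D2:**
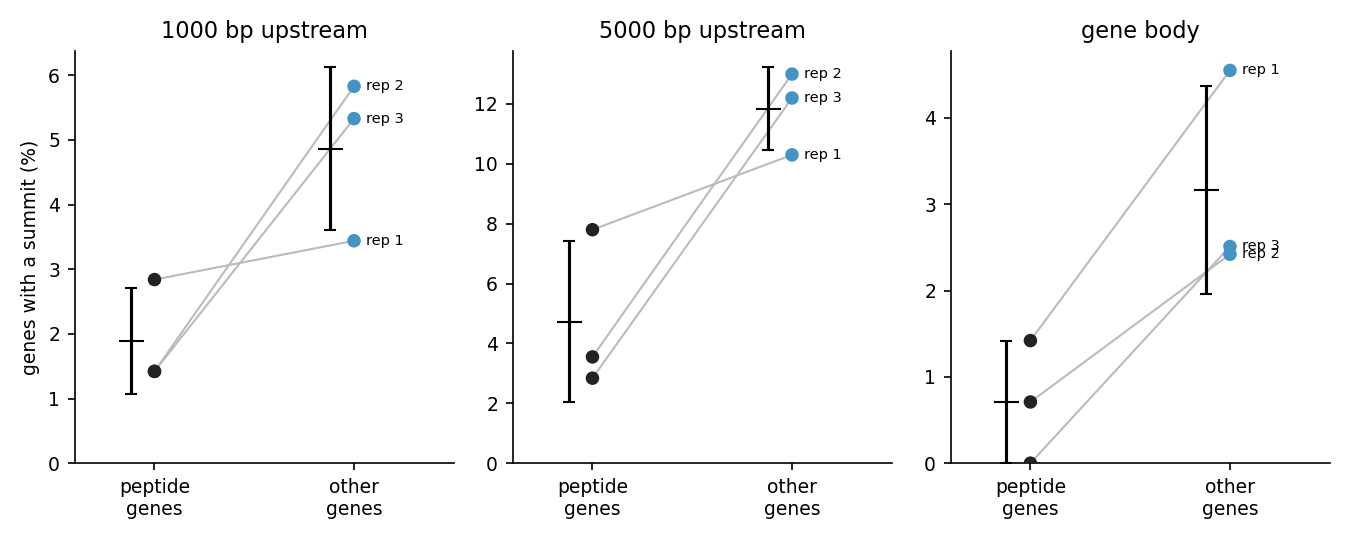
Percentage of peptide genes and of other genes with a summit among the 1997 strongest regions of each replicate, 1 line per replicate, with bars for the mean and SD (n = 3). The peptide genes lie lower in every replicate and zone, and the 2 groups come closest in replicate 1 within 1000 bp upstream (2.84% and 3.44%).

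The counts were also taken by chromosome and by the distance to the next gene, where each class holds 0 or 1 peptide gene with a summit. Peptide genes were more often on X (34 of 141, 24.1%) than other genes (13.6%), and 13 of 31 flp genes were there. On X 1 of 34 peptide genes (2.94%) had an IDR summit within 1000 bp upstream, against 6.34% of other genes on X, and on autosomes 0 of 107, against 5.72%. The median distance to the next gene upstream was 2540 bp for peptide genes and 929 bp for others. In every class of that distance the peptide share was lower: 0 of 23 against 6.42% up to 500 bp, 0 of 36 against 6.33% above that and up to 2000 bp, 0 of 38 against 4.49% from there up to 5000 bp, and 1 of 44 (2.27%) against 4.65% beyond. Of the 49 peptide genes with a divergent upstream neighbour 0 had a summit within 1000 bp, against 8.92% of other genes so placed. With the neighbour on the same strand it was 1 of 77 (1.3%) against 3.52%, and with a gene overlapping the 5′ end 0 of 15 against 3.56%. Per length of sequence there were 7.176 IDR summits per Mb in the 1000 bp windows of peptide genes (1 summit in 0.139 Mb) and 49.2 in those of other genes. The nearest IDR summit on either side of a 5′ end was at a median of 27047 bp for peptide genes and 21440 bp for other genes. At the upper quartile the order was reversed, with 44595 bp for peptide genes and 47916 bp for other genes.

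The counts within genes were taken by gene length as well. Peptide genes had a median length of 903 bp, against 2034.5 bp for other genes, and 93 of 141 (66.0%) belonged to the shortest of 4 equal classes of all genes by length (up to 1215 bp). In that class 0 of 93 peptide genes and 0.408% of other genes had an IDR summit in the body. In the second class the values were 0 of 20 and 0.604%, in the third 1 of 16 (6.25%, nlp-11) and 1.59%, and in the longest 0 of 12 and 6.95%. With 1 peptide gene in all, these classes are thin, and the part of gene length in the counts was not tested.

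In the pooled list, too, the shares of peptide genes were lower than those of other genes in the 3 zones. A pooled summit lay within 1000 bp upstream of 35 peptide genes (24.8%), against 35.0% of all protein-coding genes and 35.1% of others, and within 5000 bp of 88 (62.4%), against 71.1%. In gene bodies there were 44 (31.2%), against 42.1%. Within 5000 bp the nlp share (74.6%) lay above that of other genes, and the flp (54.8%) and insulin-like (46.2%) shares lay below. In bodies the flp share (45.2%) lay above, and the nlp (36.6%) and insulin-like (10.3%) shares lay below. Within classes of gene length the body shares lay above those of other genes in 3 of 4 (20.4% against 17.4% in the shortest class, 45.0% against 31.1% in the second and 8 of 16 against 46.7% in the third) and below in the longest (66.7% against 73.0%), and per Mb of body the 2 groups were close (272.2 and 274.7 summits). Upstream 279.9 summits per Mb stood against 380.2 for other genes.

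Outside the IDR set the insulin-like genes had the lowest share of the 3 families. A pooled summit outside it lay within 1000 bp upstream of 4 of 39 (10.3%), against 30.2% of all protein-coding genes, and of 9 of 31 flp genes and 21 of 71 nlp genes (29.6%). In 19 of 39 insulin-like genes (48.7%) the whole pooled list had no summit in the 5000 bp upstream or in the body, against 9 of 31 flp genes, 10 of 71 nlp genes (14.1%) and 21.2% of other genes. Some of these 19 are neighbours with overlapping 5000 bp windows, such as ins-3 to ins-6 and ins-21 to ins-23. The 19 genes are thus not 19 separate places. Those 19 included ins-6, a ligand that acts with daf-28 to prevent dauer entry, and ins-18, known as an antagonist of DAF-2. At daf-28 itself the only pooled region stood at -1462 bp with a signal of 7.74 (rank 24839), and at ins-1 at -4785 bp with a signal of 9.91 (rank 17069). In contrast, ins-7, an agonist of DAF-2, had a region at 63 bp downstream of its 5′ end with a signal of 25.3 (rank 3380), listed in replicates 2 and 3 with ranks of 2891 and 7195. The differences between families were not tested.

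Regions at peptide genes were also weaker where there were any. Among the 35 peptide genes with a pooled summit within 1000 bp upstream the strongest one had a median signal of 10.7 (quartiles 9.37 and 16.9), and among the 6953 other genes 13.9 (quartiles 9.43 and 25.8). Counted to the 5000 strongest pooled regions, 7 of 141 peptide genes (4.96%) and 2389 of 19832 other genes had a summit there, and to the 10000 strongest 12 (8.51%) and 18.2%. The highest signal within 1000 bp upstream of an flp gene was 20.6, at flp-23, in a transfer RNA gene at -372 bp. The flp genes flp-3 (at -585 bp) and flp-9 (at -197 bp) followed, each with a signal of 16.9. At flp-1 the strongest region (signal 9.81) lay in the body, shared with the host gene daf-10. At flp-18 and flp-21, which encode ligands of the receptor NPR-1, the body regions had signals of 9.43 and 6.73.

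**Figure D3:**
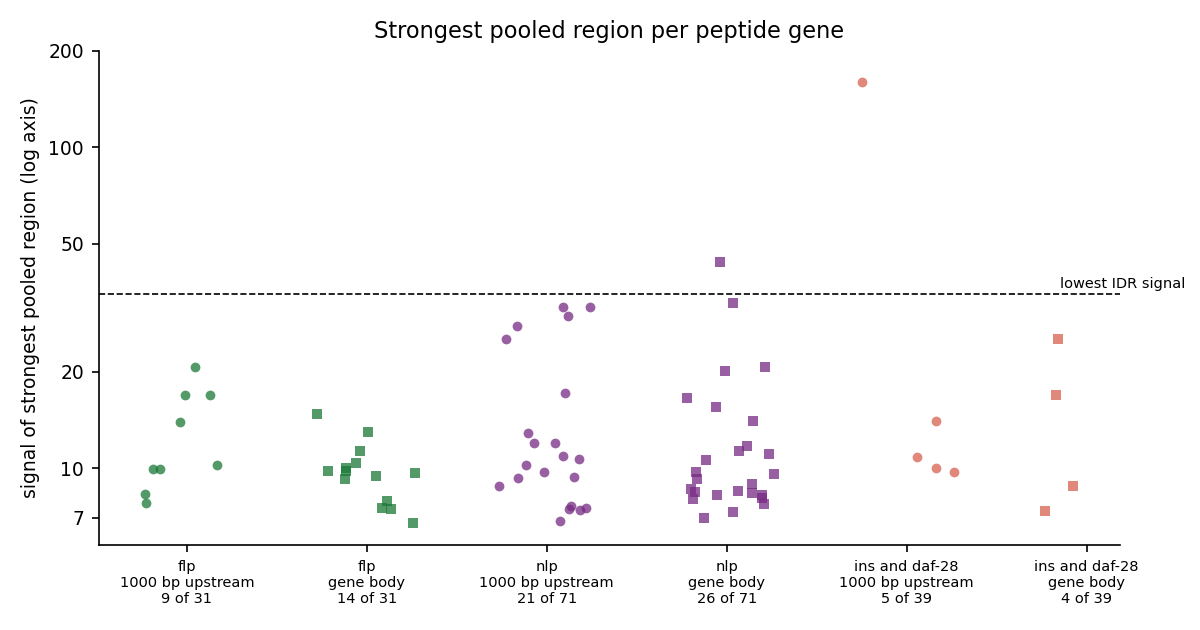
Signal (log axis) of the strongest pooled region of each peptide gene within 1000 bp upstream (circles) and in the gene body (squares), with the number of genes that had any under each column and a dashed line at the lowest IDR signal (34.8). Only ins-39 (160.0) and nlp-11 (43.8) lie above the line, and the nlp genes fill the space just below it.

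**Figure D4:**
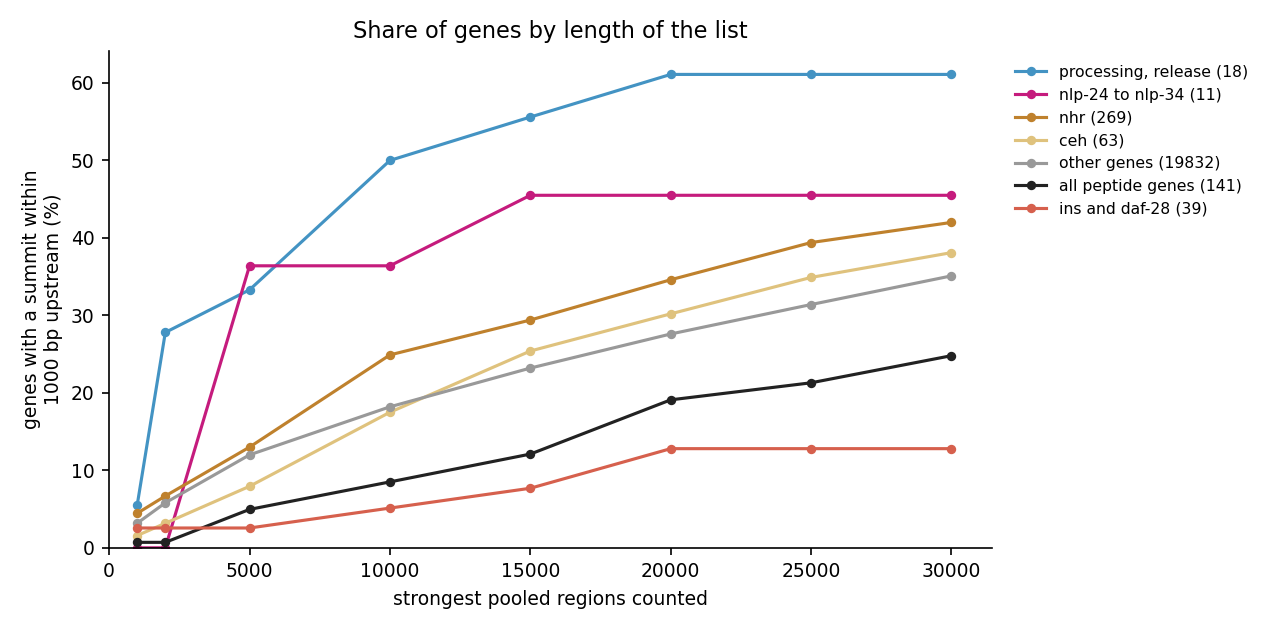
Percentage of genes with a summit within 1000 bp upstream, counted to a growing number of the strongest pooled regions, for peptide genes and groups of other genes (number of genes in the legend). Other genes stand above the peptide genes at every length (5.81% and 0.709% at 2000 regions, 35.1% and 24.8% at 30000), while nlp-24 to nlp-34 go from 0% at 2000 regions to 36.4% at 5000.

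The strongest regions outside the IDR set were at nlp genes, above all in the series nlp-24 to nlp-34, to which nlp-29 and nlp-31 belong. These 11 genes had 0 IDR summits in any zone, yet 4 of them (36.4%) had a summit within 1000 bp upstream among the 5000 strongest pooled regions, a mark that 2389 of 19832 other genes reached. Over the whole pooled list the count was 5 of 11 (45.5%), against 35.0% of all genes, and each of the 11 had some pooled summit within 5000 bp upstream or in the body, as 78.7% of all genes did. A single region (chrV:3979876-3980225, signal 31.7, pooled rank 2318) served both nlp-31, at -4 bp, and its divergent neighbour nlp-34, at -917 bp, so the 4 genes rest on 3 regions. It had rank 213 in replicate 1 (signal 11.7), 2341 in replicate 2 (signal 14.3) and 4380 in replicate 3 (signal 11.9). The region at nlp-29 (summit at -129 bp, signal 25.3) was rank 1609 in replicate 2 and 6911 in replicate 3, and that at nlp-24 (summit at -229 bp, signal 29.9) was rank 8411 in replicate 2 and 1832 in replicate 3. Neither was listed in replicate 1. At nlp-33 the summit fell in a coding exon 38 bp downstream of the 5′ end (signal 32.6, rank 2223) with ranks of 6880, 3091 and 3043 in replicates 1, 2 and 3.

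The cluster of 6 nlp genes on chromosome V (nlp-34, nlp-31, nlp-30, nlp-29, nlp-28 and nlp-27) spans 10946 bp. Its 5′ ends were 142253 to 152497 bp from the nearest IDR summit, and 6 pooled summits lay within it. For other genes the pooled list had 306.9 summits per Mb within 5000 bp upstream and 274.7 per Mb of body. Whether the cluster held more than other stretches of its length was not tested. After those at nlp-31 and nlp-29 came one between nlp-29 and nlp-28 (signal 18.4) and one at -169 bp of nlp-28 (rank 12289). The others had signals of 8.94 and 6.99. No pooled summit fell within 1000 bp upstream of nlp-30 or nlp-27.

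**Figure D5:**
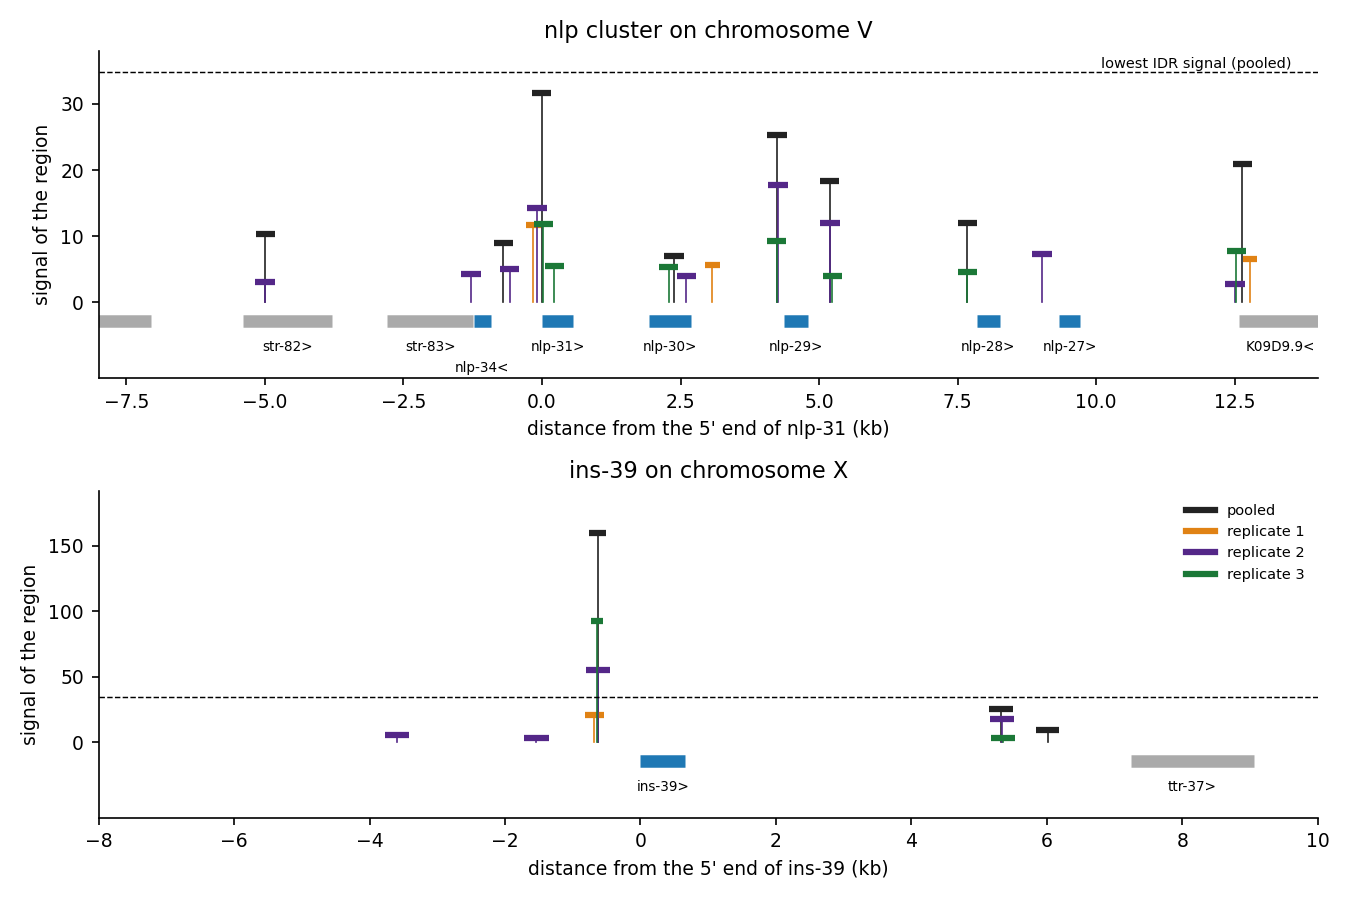
Regions of the pooled list and of the 3 replicates (horizontal bars at the height of their signal, with a line at the summit) by distance in kb from the 5′ end of nlp-31 (top) and of ins-39 (bottom), genes below, and a dashed line at the lowest IDR signal, 34.8, which applies to the pooled list. Signals of different lists are not on a common scale. At ins-39 all 4 lists have a region at about the same place, and in the nlp cluster no pooled region reaches the line.

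Among other genes outside the IDR set, nlp-4 had a region at -77 bp (signal 27.8) in the 323 bp between it and its divergent neighbour exos-3. The list of the 10 strongest was completed by nlp-78 (at -24 bp, signal 17.2) and ins-24 (at -84 bp, rank 9262), the latter with no region in any replicate's list. The strongest pooled region of nlp-12, a cholecystokinin-like peptide of the tail neuron DVA, was at -1272 bp (signal 21.2), which is -333 bp from the 5′ end of emr-1.

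Each of the motifs searched was held by a smaller share of peptide promoters than of all promoters, and the differences were not tested. In a promoter window of 300 bp (250 bp before the 5′ end and 50 bp after it), 68 of 141 peptide genes (48.2%) held a GATA site, against 54.5% of all promoters, 28 (19.9%) held GAGAGA, against 21.8%, and 4 (2.84%) held the E-box, against 5.82%. By family the GATA share was 51.6% in flp, 42.3% in nlp and 56.4% in insulin-like promoters, and the GAGAGA share was 25.8%, 21.1% and 12.8%. The E-box share was 0%, 4.23% and 2.56%. Of the 11 promoters of nlp-24 to nlp-34, 7 (63.6%) held a GATA site and 4 (36.4%) held GAGAGA. Mean G+C content was 37.1% in peptide promoters and 34.8% in all. At IDR summits 49.3% of all 201 bp windows held GAGAGA, against 21.6% of pooled windows, and 37.9% and 38.7% held a GATA site. Of the windows printed above, that of nlp-31 held 4 GATA matches, 1 pair of them overlapping, and 1 GAGAGA, that of nlp-24 held 1 GATA match, that of nlp-29 held 1 GAGAGA, and those of ins-39, nlp-11 and nlp-33 held neither. Among the IDR windows not printed, that of nlp-56 held 5 GAGAGA matches, some overlapping, and 1 GATA match. The window of nlp-80 held 1 GAGAGA and 2 GATA matches, and that of nlp-76 held neither.

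The lists of genes compared below were chosen with earlier results of these data known. Genes of the list for peptide processing and release had more IDR summits than the peptide genes. Within 1000 bp upstream 5 of 18 (27.8%) had one, against 5.77% of all genes. They were unc-108, the RAB-2 homologue needed for dense core vesicle maturation (summit at -36 bp, signal 63.7), its partner in that step rund-1 (-435 bp, signal 49.3), egl-21 (-55 bp, signal 47.7), sbt-1, the 7B2 homologue that assists EGL-3 (-149 bp, signal 47.6), and ida-1, the homologue of the dense core vesicle protein IA-2 (-157 bp, signal 37.8). The convertase gene egl-3 and unc-31 had summits further upstream, at -1162 bp (signal 57.4) and -2309 bp (signal 41.8). Of 104 receptor genes 1 (0.962%), npr-23, had a summit within 1000 bp (-107 bp, signal 41.9). The insulin receptor gene daf-2 had 2 IDR summits in its body, and of 10 genes of its pathway daf-16 (-452 bp, signal 58.2) and akt-2, encoding a kinase of the AKT family (-762 bp, signal 55.8), had one within 1000 bp upstream. Other secreted peptides, among them the antimicrobial cnc, fip and fipr genes, had 2 of 54 (3.70%), both in 1 locus on X, at fipr-21 and fip-5, and 0 of 11 cnc genes. By the same count 2 of 63 ceh homeobox genes (3.17%) and 18 of 269 nuclear hormone receptor genes (6.69%) had a summit. The differences between these lists and the peptide genes were not tested.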

How the data were processed

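Lists of regions from 3 ChIP-seq replicates, 1 group, were used on ce11. Per the library notes deposited with the samples, each replicate's list and the pooled list came from alignments set against a control, and the IDR set was derived from those lists. Neither the aligner, the peak caller nor the threshold of the IDR step is given in the sources used here. The signal of each region is the authors' deposited value, on a scale that is not named. The −log10 q-value the authors deposited was not used. The lists on ce10 and the control were not used here.

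Genes came from Ensembl release 115 (WBcel235). A gene counted where at least 1 summit lay 1 to 1000 bp or 1 to 5000 bp upstream of its 5′ end or in its body, whichever gene was nearest. Of the genes, 205 share a symbol with another, and none of these is a peptide gene. Shares were compared with all other protein-coding genes as a description. Replicate values used the 1997 strongest regions of each list, with an exact sign-flip permutation test. Named genes were every member with an IDR summit, the 10 with the strongest pooled summit outside the IDR set within 1000 bp upstream, and 10 fixed by name. The strongest body regions, the nlp cluster and genes of the companion lists beyond the rule were named after their values were seen. Members and lists were chosen with earlier results of these data known. Alternatives were other windows, 5′ ends, overlap rules, peak subsets and left-out replicates. Window counting was tested on simulated data. Python 3.11.15, NumPy 2.4.6 and pandas 2.3.3 were used.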

Additional observations from a re-analysis of the deposited data

How the results depend on the processing

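Values are shares of peptide genes minus shares of other genes, in percentage points, and no alternative turned a sign. With fewer IDR peaks 1 peptide gene stayed counted within 1000 bp, while the share of other genes fell, so these points follow the number of peaks. Within 1000 bp upstream (-5.09) the value was -2.47 with the 998 strongest IDR peaks, -0.809 with those found in every replicate, and -3.01 to -0.935 with each replicate left out. Within 5000 bp (-10.4) it was -2.66 with peaks found in every replicate and -7.81 to -2.97 with each replicate left out. In gene bodies (-1.69) it was -0.524 in exons only, -3.0 with 200 bp on each side, -2.95 with any overlap, -0.686 with peaks found in every replicate, -2.91 with the 4000 strongest pooled regions, and -1.54 to -0.726 with each replicate left out. For pooled summits within 1000 bp (-10.2) it was -12.8 with the 5′ ends of all transcripts, -7.08 and -8.46 with the strongest 5000 and 20000 regions, -6.15 outside the IDR set, and -10.8 to -2.66 with each replicate left out. The ins-39 peak was counted in every set of IDR peaks except within 500 bp, where 0 peptide genes had a summit (-4.49).

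A left-out replicate means that IDR peaks had to overlap the 1997 strongest regions of both others (pooled regions any of theirs), and peaks found in every replicate overlap those of all 3. This kept 1246 IDR peaks without replicate 1, 544 without replicate 2 and 565 without replicate 3, and the points fell with the number of peaks. In each such set 1 peptide gene had a summit within 1000 bp and within 5000 bp, and 0 in the body. The counts of 1 to 5 peptide genes are small, read depth is unknown, and 3 replicates allow no p under 0.25.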

Other observations

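Among the 5 IDR regions the summit upstream of nlp-76 is in a transfer RNA gene. Among the 10 peptide genes with the strongest regions outside the IDR set within 1000 bp upstream, that of flp-23 is in a transfer RNA gene. In gene bodies, the summit at ins-37 (75 bp downstream of the 5′ end, signal 16.9) is in a small nuclear RNA gene and was listed in replicates 1 and 3, with ranks of 8842 and 13698. The share of all summits in such RNA genes was not computed, so nothing is read from these places.

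Inside peptide genes the strongest regions outside the IDR set were those of nlp-33 (signal 32.6), ins-7 (signal 25.3), nlp-14 in an intron (signal 20.6) and nlp-18 in a noncoding part of an exon (signal 20.1). The first 2 of these lie within 100 bp downstream of the 5′ end, just outside the upstream windows.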
